A study of Mus musculus with 16 samples.

Results

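In 16 RNA-seq libraries from pre-B cells of the mouse, 9 genes of the PI3K, AKT and FOXO pathway were followed. Pre-B cells are B cell precursors that the fusion kinase BCR-ABL1 can transform into acute lymphoblastic leukaemia. The genes were taken by symbol as parts of this pathway, 9 of the 23279 symbols in the expression table. The rule itself uses no expression value, but the 9 were chosen with earlier results of these data known. They are the adaptor gene Irs2, the PI3K subunit genes Pik3cd and Pik3r1, the PI3K inhibitor gene Pik3ip1, the lipid phosphatase gene Inpp5d, the kinase gene Akt1, the transcription factor genes Foxo1 and Foxo3, and Txnip, which FOXO factors are known to regulate. The labels cross the BCR-ABL genotype with the genotype of SHP2, the phosphatase encoded by Ptpn11, and each group held 4 libraries. The groups were SHP2 NULL (-/-) cells and SHP2 WT (+/+) cells with BCR-ABL1, and SHP2 NULL (-/-) cells and SHP2 WT (+/+) cells without it. All 4 groups carry the label pre-B cells. The sources used here do not say how BCR-ABL1 was introduced, how SHP2 was removed, or the strain and age of the mice. The labels also leave unsaid whether libraries of 1 group are of different mice or cultures. A p-value here therefore reflects the variation among these libraries alone, which may be technical.

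PI3K is a lipid kinase built from a catalytic subunit, such as p110 delta, and a regulatory subunit, such as p85 alpha. Receptors and adaptors recruit it to the membrane, where its product draws AKT and leads to AKT activation, and lipid phosphatases such as SHIP1 remove that product. Active AKT phosphorylates FOXO factors and keeps them out of the nucleus. When PI3K signalling is low, FOXO factors enter the nucleus and switch on genes of arrest, survival and pre-B cell differentiation. Phosphorylation and nuclear entry are not visible in RNA levels.

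Ptpn11 was measured first as a check of the labels. It read 3.56, 3.56, 6.07 and 4.88 FPKM (fragments per kilobase of transcript, relative to all fragments mapped in that library) in SHP2-null replicates 0 to 3 with BCR-ABL1, against 17.2, 17.1, 15.7 and 18.0 FPKM in SHP2 wild-type libraries with BCR-ABL1. Without BCR-ABL1 it read 7.43, 6.81, 2.87 and 6.02 FPKM in SHP2-null libraries, against 16.7, 17.6, 16.1 and 16.5 FPKM in SHP2 wild-type libraries. Every null library thus lay below every wild-type library, and the SHP2-null mean of Ptpn11 was 26.6% of the wild-type mean with BCR-ABL1 (limma adjusted p = 0.000257) and 34.5% without it (adjusted p = 0.00108). The pre-B markers were at 1 FPKM or more for 9 of 9 genes, and their summed level ran from 2153 to 2631 FPKM over the 16 libraries. Markers of T and NK cells summed to at most 3.29 FPKM, those of erythroid cells and megakaryocytes to at most 0.991 FPKM and those of stroma to at most 0.0896 FPKM. The library of SHP2-null replicate 2 without BCR-ABL1 stood apart, with 413 FPKM of summed myeloid markers, almost all of it the macrophage gene Lyz2, against at most 36.0 FPKM in any other library. Mast cell markers summed to 0 to 0.510 FPKM in SHP2-null and 0.0401 to 1.39 FPKM in SHP2 wild-type cells carrying BCR-ABL1, and to 0.0204 to 6.77 FPKM in SHP2-null and 6.71 to 11.9 FPKM in SHP2 wild-type cells without it. Cma1 and Mcpt4 were listed at 0 in all libraries with BCR-ABL1. The part of these markers in the results below was not tested. No counts were used here, and the depth of each library is unknown.

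Of the 9 genes, Irs2 fell with BCR-ABL1 in both SHP2 genotypes. Txnip rose with BCR-ABL1 in SHP2-null cells and passed in no other comparison. Passing means a limma p below 0.05 after adjustment over all genes tested. Pik3ip1 lay at the same end as Txnip, highest in SHP2-null cells with BCR-ABL1, without passing. The other 6 genes, which include both FOXO factor genes, the PI3K subunit genes and Akt1, passed in none of the 5 comparisons. Mean levels, which FPKM scales by transcript length, set the genes in a wide order. Over the 4 groups Pik3cd averaged 66.5 to 77.2 FPKM, Inpp5d 56.8 to 60.2, Akt1 43.4 to 53.2, Txnip 20.5 to 36.1, Pik3r1 13.2 to 14.8, Foxo1 6.48 to 7.96, Pik3ip1 5.22 to 7.97, Foxo3 5.33 to 6.22 and Irs2 0.561 to 1.44 FPKM.

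Counts over the 9 genes were read against all 10210 genes tested, as a description, since the 9 were chosen with earlier results of these data known. With SHP2 loss 0 of 9 passed in cells with BCR-ABL1, where 0.313% of all genes did, and 0 of 9 in cells without it, where 1.54% did. The second of these counts over all genes was 587 with the replicate number as a block, against 157 without it, and 0 of the 9 passed under the block too. The interaction was passed by 0 of 9 and by 0.00% of all genes in limma, with 591 genes and 2 of the 9 at an unadjusted p below 0.05, and by 0 to 3 genes over the alternatives. With BCR-ABL1, 2 of 9 passed in SHP2-null cells (1.26% of all genes, 129 without and 538 with the block) and 1 of 9 in SHP2 wild-type cells (4.67% of all genes). Libraries of the groups did not overlap for 2 of 9 genes with SHP2 loss in cells with BCR-ABL1 (3.10% of all genes) and for 0 of 9 in cells without it (9.09%). With BCR-ABL1 this held for 2 of 9 in SHP2-null cells (7.07%) and for 2 of 9 in SHP2 wild-type cells (11.7%). The median log2 change of the 9 genes was 0.02 and 0.07 for SHP2 loss with and without BCR-ABL1, against -0.02 and 0.02 over all genes, and -0.08 and -0.01 for BCR-ABL1 in SHP2-null and wild-type cells, against -0.01 and 0.04.

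**Figure D1:**
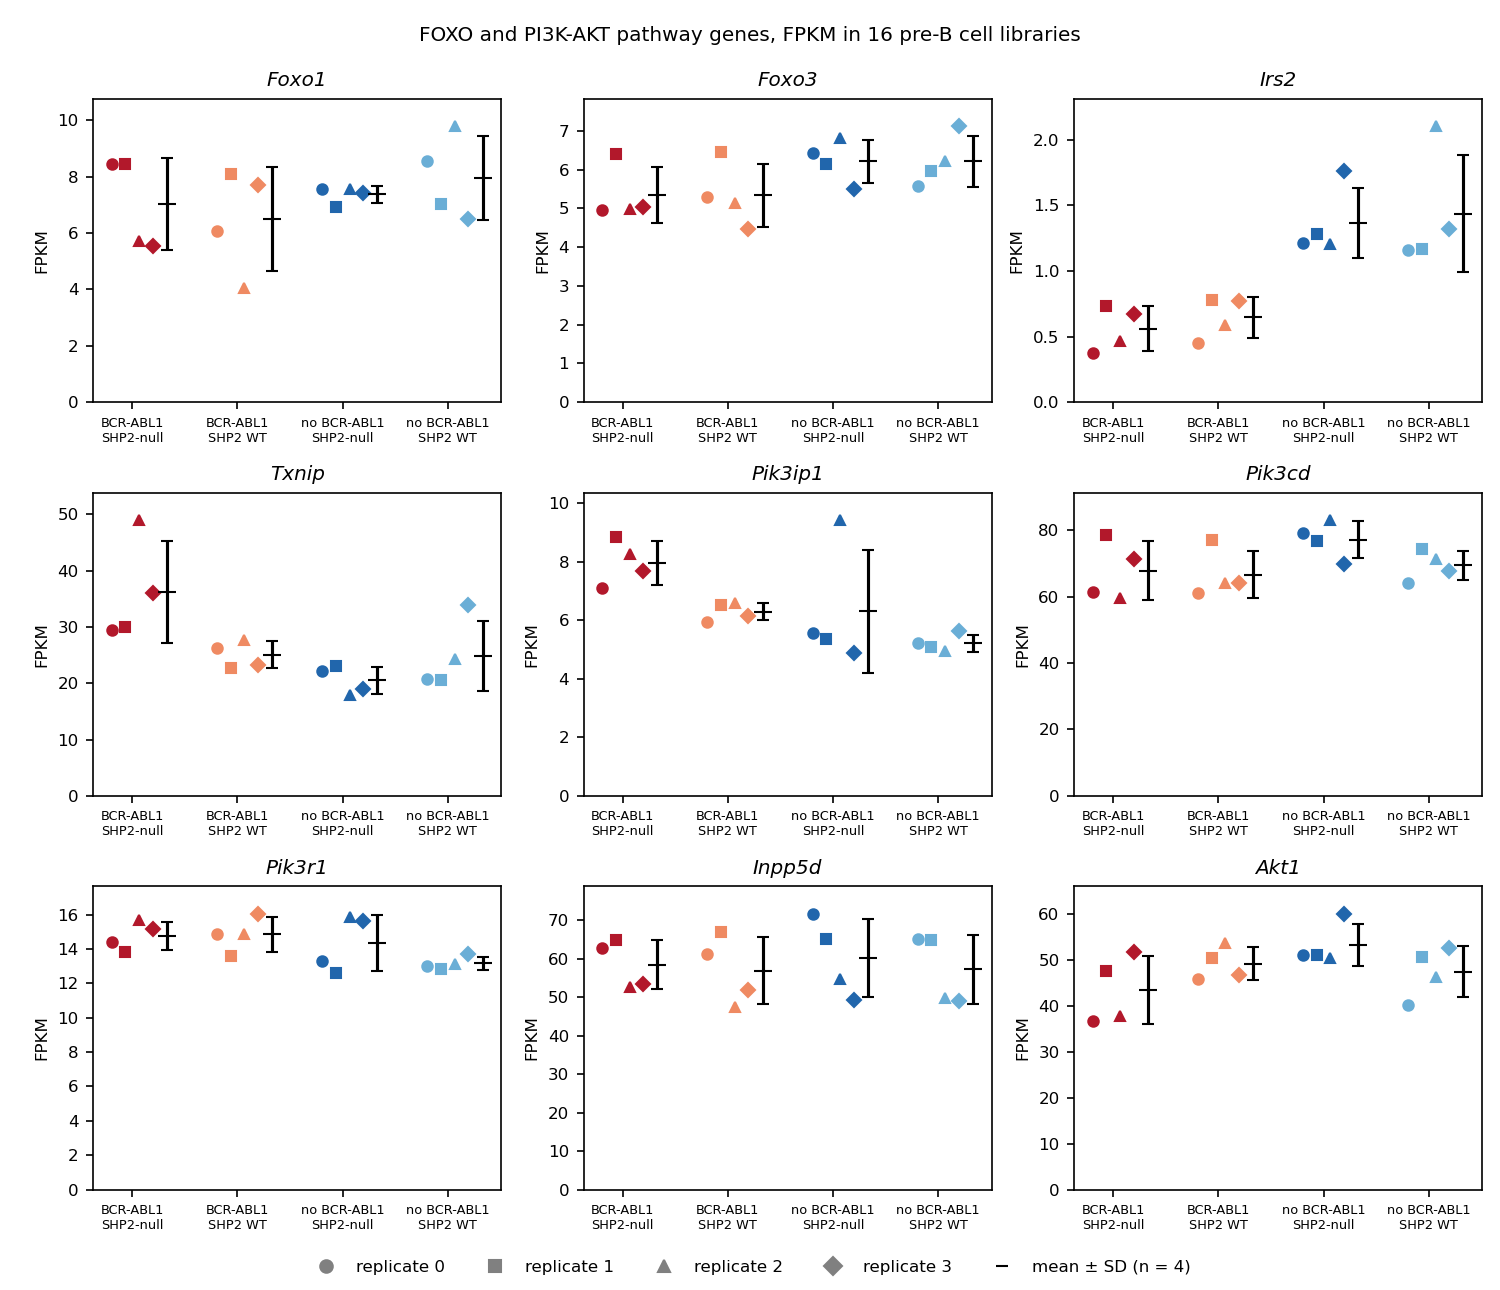
FPKM of each of the 9 genes in the 16 libraries, by group, with a marker for each replicate number and the mean ± SD (n = 4) beside each group. The Irs2 values of both groups with BCR-ABL1 lie below 1 FPKM and all those without it lie above, while the groups overlap for Foxo1, Foxo3, Pik3cd, Pik3r1, Inpp5d and Akt1.

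The first gene, Irs2, encodes an adaptor that links insulin, IGF and some cytokine receptors to PI3K, and is itself known to be raised by FOXO factors when insulin signalling is low. It lies on chr8:10984681-11008458 (minus strand, GRCm38). Its level was 0.377, 0.733, 0.463 and 0.672 FPKM in SHP2-null libraries with BCR-ABL1, against 1.21, 1.28, 1.21 and 1.76 FPKM in SHP2-null libraries without it. Irs2 in SHP2 wild-type cells was 0.450, 0.776, 0.591 and 0.773 FPKM with BCR-ABL1, against 1.16, 1.17, 2.10 and 1.32 FPKM without it. All 8 libraries with BCR-ABL1 were lower than all 8 without it.

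With BCR-ABL1, Irs2 averaged 0.561 ± 0.168 FPKM in SHP2-null cells, against 1.37 ± 0.266 FPKM without it (SD, n = 4 each), which leaves 41.1%. SHP2 wild-type cells averaged 0.647 ± 0.157 FPKM with BCR-ABL1, against 1.44 ± 0.449 FPKM without it, which leaves 45.0%. On the log2(FPKM + 1) scale, which understates the change of a gene at this level, Irs2 fell by 0.60 ± 0.12 (SE, limma adjusted p = 0.0280) in SHP2-null cells and by 0.55 ± 0.12 (adjusted p = 0.0187) in SHP2 wild-type cells. With a pseudocount of 0.1 the log2 changes were -1.17 and -1.03. In each genotype Irs2 was lower with BCR-ABL1 in 4 of 4 pairs of libraries with the same replicate number. Any pairing would give that count, since the groups did not overlap, so it adds no support. Fewer cells that express a gene and less RNA per cell cannot be told apart in such bulk samples. Irs2 entered the test only through the libraries without BCR-ABL1, since the filter asked for 1 FPKM in 4 libraries and no library with BCR-ABL1 reached it. The mast cell marker sums given above also differed with BCR-ABL1, and their part in the Irs2 result was not tested.

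The Irs2 calls did not hold in every fit that left out 1 library. In SHP2-null cells the adjusted p ran from 0.0104 to 0.109 over fits that each left out 1 library, and the call was lost without SHP2-null replicate 0 (0.109) or 2 (0.107) with BCR-ABL1 and without SHP2-null replicate 0 (0.0554), 1 (0.0507) or 3 (0.0974) lacking BCR-ABL1. For SHP2 wild-type cells it ran from 0.0157 to 0.0710, and the call was lost without SHP2 wild-type replicate 0 (0.0710) or 2 (0.0521) with BCR-ABL1 and without SHP2 wild-type replicate 2 (0.0590) lacking it. Fits on the groups compared only gave 0.0651 in SHP2-null and 0.0520 in SHP2 wild-type cells. Loss of SHP2 did not move Irs2 past the threshold, with log2 changes of -0.08 ± 0.12 (SE, limma adjusted p = 1.00) with BCR-ABL1 and -0.03 ± 0.12 (adjusted p = 0.919) without it. Their 95% intervals were -0.34 to 0.19 and -0.30 to 0.23. Between libraries with the same replicate number Irs2 was lower in SHP2-null cells in 4 of 4 pairs with BCR-ABL1 and in 1 of 4 pairs without it, and neither comparison passed with the number as a block.

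Txnip encodes a thioredoxin-binding protein of the alpha-arrestin family that limits glucose uptake, and lies on chr3:96557957-96561883 (plus strand, GRCm38). In SHP2-null cells it read 29.5, 29.9, 48.9 and 36.1 FPKM with BCR-ABL1, against 22.1, 23.0, 17.9 and 19.0 FPKM without it. SHP2 wild-type cells read 26.3, 22.8, 27.8 and 23.2 FPKM with BCR-ABL1, against 20.7, 20.5, 24.3 and 33.9 FPKM without it. The 4 SHP2-null libraries with BCR-ABL1 were above the 4 SHP2-null libraries without it and above the 4 SHP2 wild-type libraries with it. The pair of SHP2 wild-type groups overlapped, and the highest of those 8 values belonged to replicate 3 without BCR-ABL1.

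With BCR-ABL1 in SHP2-null cells Txnip averaged 36.1 ± 9.06 FPKM, against 20.5 ± 2.43 FPKM without it (SD, n = 4 each), a ratio of 1.76. It rose by 0.77 ± 0.17 on the log2 scale (SE, limma adjusted p = 0.0345). The same comparison in SHP2 wild-type cells gave 25.0 ± 2.40 FPKM with BCR-ABL1 and 24.8 ± 6.27 FPKM without it, a log2 change of 0.03 ± 0.17 (adjusted p = 0.943). The difference between these effects, tested as the interaction, was 0.73 ± 0.23 and did not pass (unadjusted p = 0.00672, adjusted p = 0.747). Loss of SHP2 gave a log2 change of 0.49 ± 0.17 with BCR-ABL1 (unadjusted p = 0.00974, adjusted p = 0.850) and of -0.24 ± 0.17 without it (adjusted p = 0.496), so neither passed. Comparisons that share a group of libraries are not independent of each other.

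The Txnip call in SHP2-null cells had an adjusted p of 0.0152 to 0.116 over fits without 1 library. It was lost without SHP2-null replicate 2 (0.116, log2 change 0.61) or 3 (0.0742) with BCR-ABL1, and without SHP2-null replicate 0 (0.0628), 2 (0.0669) or 3 (0.10) lacking BCR-ABL1, of which replicate 2 is the library with the myeloid markers. No filter on low values gave 0.0606, a mean of at least 5 FPKM gave 0.0569 and the groups compared only gave 0.0937. The antisense gene Gm15441 spans the whole of Txnip on the opposite strand, and 9530052E02Rik, Gm12592 and Gm20402 overlap Irs2, Pik3ip1 and Foxo1 on the strand opposite to each. The sources used here do not say whether the counting used strand, so reads of these partners cannot be told apart.

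The bases just before the RefSeq start of Irs2 and Txnip are shown because these were the genes that passed. Capitals mark the matches found, which in Irs2 are the E-box CACGTG and the insulin response element TGTTTTG, and in Txnip the FOXO binding element, here as GTAAACA.
Irs2 (chr8:11008930-11009179, minus strand): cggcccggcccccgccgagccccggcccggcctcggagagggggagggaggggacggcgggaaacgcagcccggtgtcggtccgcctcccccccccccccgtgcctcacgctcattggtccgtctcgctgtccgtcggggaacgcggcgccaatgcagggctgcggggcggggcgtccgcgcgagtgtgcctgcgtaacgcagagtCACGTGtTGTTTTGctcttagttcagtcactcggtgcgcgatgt
Txnip (chr3:96557707-96557956, plus strand): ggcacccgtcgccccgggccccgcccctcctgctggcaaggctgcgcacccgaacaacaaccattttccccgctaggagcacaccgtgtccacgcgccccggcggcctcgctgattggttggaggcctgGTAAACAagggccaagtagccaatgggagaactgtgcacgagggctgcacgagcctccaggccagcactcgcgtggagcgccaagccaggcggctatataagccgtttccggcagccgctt
Both sequences are from RefSeq (GRCm38.p6) and hold the 250 bases before the start that RefSeq annotates. For Irs2 that start lies upstream of the GENCODE start at the end of the gene position given above, so its window does not adjoin that position. In Irs2 the TGTTTTG match lies 37 to 31 bases before the RefSeq start and the CACGTG match 44 to 39 bases before it. In Txnip the GTAAACA match lies 121 to 115 bases before the start. Both strands of 13 windows of 9 of the 9 genes were searched for the FOXO binding element TGTTTAC, the insulin response element TGTTTTG and the E-box CACGTG. The E-box reads the same on both strands, and the other motifs do not overlap it in Irs2. The only other match was TGTTTAC in 1 window of Akt1, 161 to 155 bases before the start. Of 32851 RefSeq windows of the same length, 3.17% held the FOXO binding element, 5.56% the insulin response element and 6.02% the E-box. A match describes letters and is no evidence of binding.

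Pik3ip1 encodes a membrane protein that binds the PI3K catalytic subunit and inhibits it, and FOXO factors are known to raise it in lymphocytes. It lies on chr11:3330401-3342971 (plus strand, GRCm38). SHP2-null libraries with BCR-ABL1 held 7.09, 8.84, 8.25 and 7.69 FPKM, against 5.95, 6.50, 6.58 and 6.14 FPKM in SHP2 wild-type libraries with BCR-ABL1. Without BCR-ABL1 the SHP2-null libraries held 5.56, 5.35, 9.41 and 4.87 FPKM, against 5.22, 5.07, 4.96 and 5.62 FPKM in SHP2 wild-type libraries. With BCR-ABL1 the SHP2 groups did not overlap, and in SHP2 wild-type cells the libraries with BCR-ABL1 lay above those without it. The value of 9.41 FPKM came from the library with the myeloid markers.

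In the fit of all 16 libraries Pik3ip1 passed in none of the comparisons. The log2 change was 0.30 ± 0.13 for SHP2 loss with BCR-ABL1 (SE, unadjusted p = 0.0420, limma adjusted p = 1.00) and 0.19 ± 0.13 for SHP2 loss without it (adjusted p = 0.505). With BCR-ABL1 it was 0.33 ± 0.13 in SHP2-null cells (unadjusted p = 0.0241, adjusted p = 0.283) and 0.23 ± 0.13 in SHP2 wild-type cells (adjusted p = 0.379). Leaving out the library with the myeloid markers, SHP2-null replicate 2 without BCR-ABL1, turned the comparison in SHP2-null cells into a call (0.52 ± 0.07, adjusted p = 0.00457). That comparison also passed with array weights, which give discordant libraries less weight (0.44 ± 0.08, adjusted p = 0.00441). Without the same library SHP2 loss lacking BCR-ABL1 gave Pik3ip1 a log2 change of 0.01.

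**Figure D2:**
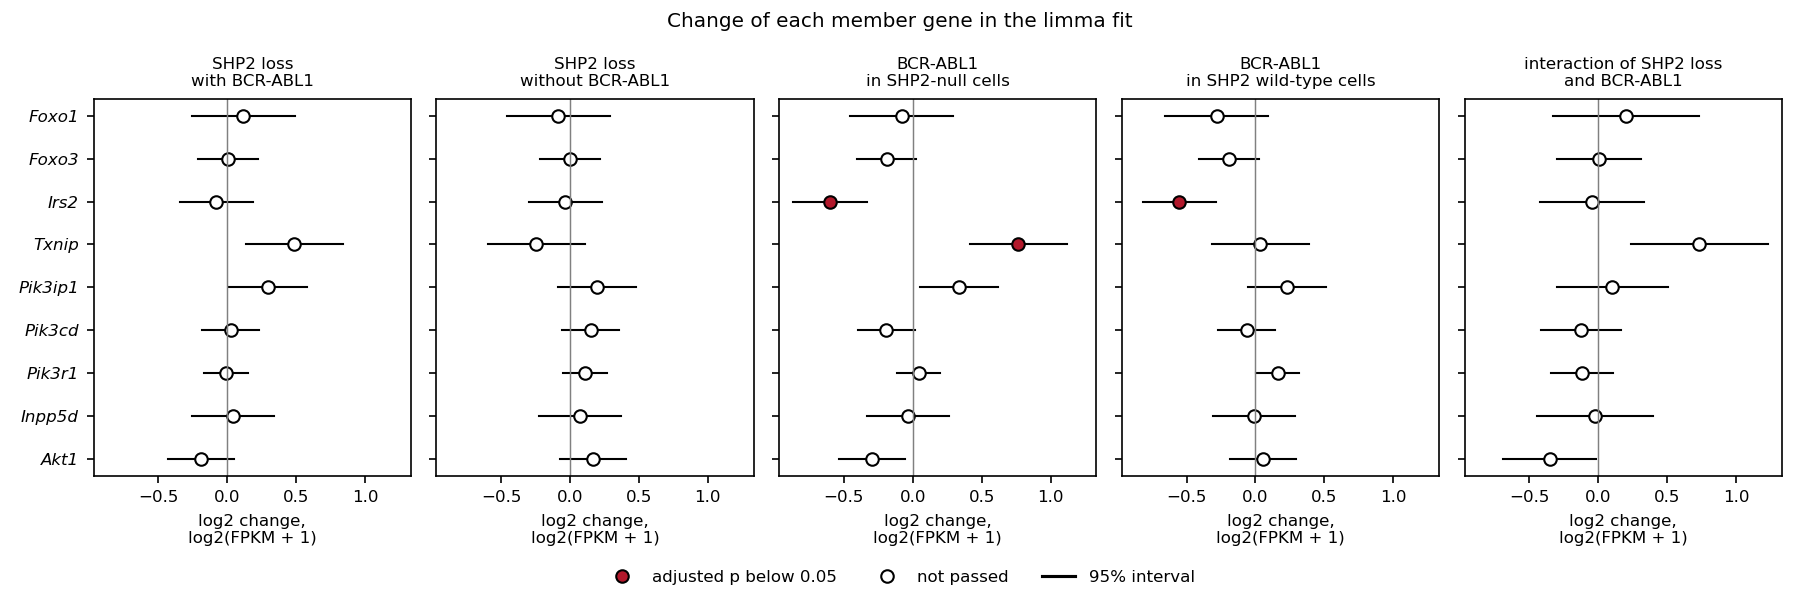
Log2 change of each of the 9 genes in the 5 comparisons, on the log2(FPKM + 1) scale, with 95% intervals from the limma fit. Filled points had an adjusted p below 0.05, which held for Irs2 with BCR-ABL1 in both SHP2 genotypes and for Txnip with BCR-ABL1 in SHP2-null cells.

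Pik3cd, on chr4:149649168-149702571 (minus strand, GRCm38), encodes p110 delta, the catalytic subunit that dominates in lymphocytes, and Pik3r1, on chr13:101680563-101768217 (minus strand), encodes p85 alpha and its shorter forms. Pik3cd ran from 59.7 to 78.7 FPKM in SHP2-null and from 61.1 to 76.9 FPKM in SHP2 wild-type cells carrying BCR-ABL1, and from 69.8 to 83.0 FPKM in SHP2-null and from 64.1 to 74.3 FPKM in SHP2 wild-type cells without it. All 4 ranges overlapped. Its log2 changes ranged from -0.19 ± 0.10 (SE), with BCR-ABL1 in SHP2-null cells (limma adjusted p = 0.415), to 0.15 ± 0.10, with SHP2 loss lacking BCR-ABL1 (adjusted p = 0.470). Pik3r1 ran from 13.8 to 15.7 FPKM in SHP2-null and from 13.6 to 16.0 FPKM in SHP2 wild-type cells carrying BCR-ABL1, and from 12.6 to 15.8 FPKM in SHP2-null and from 12.8 to 13.7 FPKM in SHP2 wild-type cells without it. Its largest difference was 0.16 ± 0.07, with BCR-ABL1 in SHP2 wild-type cells (unadjusted p = 0.0483, adjusted p = 0.256), where the groups overlapped.

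Among its paralogs Pik3cd supplied 67.0% to 78.3% of the summed FPKM of the class I catalytic genes (Pik3ca, Pik3cb, Pik3cd and Pik3cg) over the 16 libraries, and Pik3r1 supplied 71.6% to 81.7% of that of Pik3r1, Pik3r2 and Pik3r3. Foxo1 supplied 31.2% to 51.6% of the summed FPKM of Foxo1, Foxo3 and Foxo4. The mean share of Pik3cd was 71.1% ± 3.33 in SHP2-null and 70.4% ± 3.27 in SHP2 wild-type cells carrying BCR-ABL1, and 75.3% ± 2.19 in SHP2-null and 72.0% ± 2.68 in SHP2 wild-type cells without it (SD, n = 4 each). Of 12 exact two-sided permutation tests of these shares between groups, 0 passed (adjusted p = 0.686 to 0.914). The smallest p that 4 against 4 libraries allow is 0.0286, so a single share whose groups did not overlap could not have passed after adjustment over 12 tests, and the count of 0 says little. The largest difference was that of Pik3cd with BCR-ABL1 in SHP2-null cells, -4.19 percentage points (exact permutation p = 0.114, adjusted p = 0.686).

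**Figure D3:**
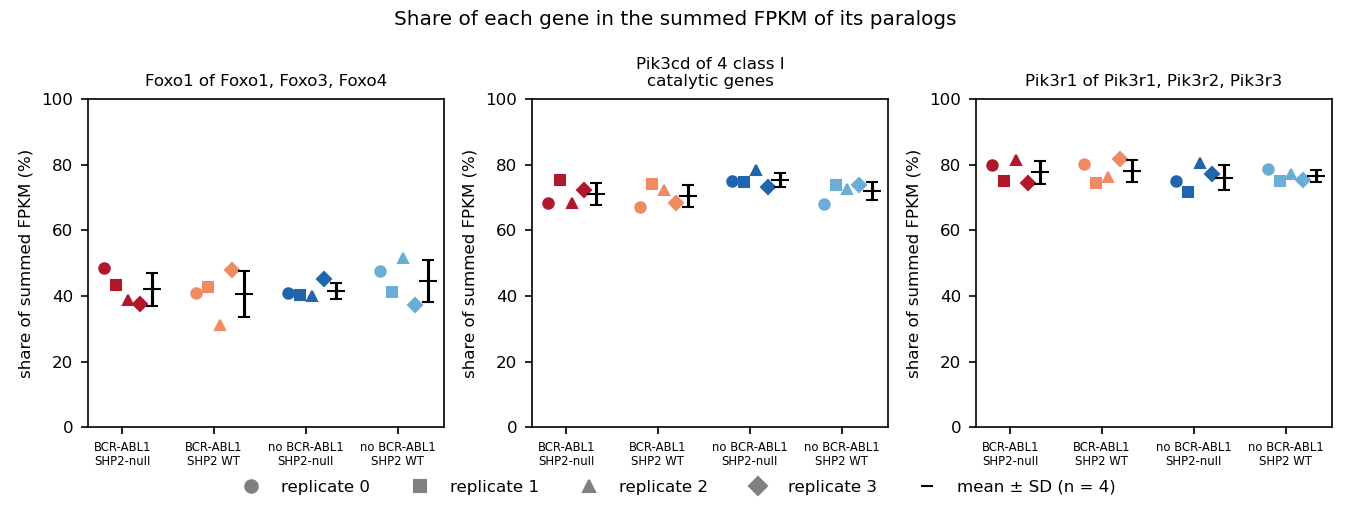
Share (%) of Foxo1, Pik3cd and Pik3r1 in the summed FPKM of their paralogs in each library, by group, with the mean ± SD (n = 4). Pik3cd and Pik3r1 held most of their family's FPKM in all 16 libraries, and Foxo1 held 31.2% to 51.6%.

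Akt1, on chr12:112653821-112674884 (minus strand, GRCm38), encodes the kinase that phosphorylates FOXO factors. Its level was 36.7, 47.5, 37.7 and 51.8 FPKM in SHP2-null libraries with BCR-ABL1, against 51.2, 51.1, 50.4 and 60.0 FPKM in SHP2-null libraries without it. In SHP2 wild-type cells it was 45.9, 50.5, 53.7 and 46.7 FPKM with BCR-ABL1, against 40.2, 50.6, 46.3 and 52.7 FPKM without it. The SHP2-null groups overlapped through replicate 3 with BCR-ABL1, while between libraries with the same replicate number Akt1 was lower with BCR-ABL1 in 4 of 4 pairs. The log2 change was -0.30 ± 0.11 in SHP2-null cells (SE, unadjusted p = 0.0185, limma adjusted p = 0.258) and 0.06 ± 0.11 in SHP2 wild-type cells (adjusted p = 0.853). The interaction was -0.35 ± 0.16 (unadjusted p = 0.0426, adjusted p = 0.839). With array weights the comparison in SHP2-null cells passed for Akt1 (adjusted p = 0.0426), Foxo3 (0.0401) and Pik3cd (0.0261), with negative changes for each. Under array weights 1861 of 10210 genes passed in that comparison.

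Inpp5d encodes SHIP1, the phosphatase that removes a phosphate of the PI3K product and acts as a brake on signalling in B cells. It lies on chr1:87620312-87720507 (plus strand, GRCm38). Its group means differed little, at 58.4 ± 6.36 FPKM in SHP2-null and 56.8 ± 8.73 FPKM in SHP2 wild-type cells carrying BCR-ABL1, and 60.2 ± 10.1 FPKM in SHP2-null and 57.2 ± 8.94 FPKM in SHP2 wild-type cells without it (SD, n = 4 each). The spread followed the replicate number. Replicates 0 and 1 held 61.1 to 71.6 and 64.7 to 66.8 FPKM over the 4 groups, while replicates 2 and 3 held 47.5 to 54.8 and 49.0 to 53.3 FPKM. Each of the 8 libraries numbered 0 or 1 was thus above each of the 8 numbered 2 or 3, a split seen after the values were known. For Pik3r1 the means over the 4 groups were 13.9, 13.2, 14.9 and 15.1 FPKM for replicates 0 to 3, and for Foxo1 they were 7.65, 7.63, 6.78 and 6.80 FPKM, with libraries that overlap between numbers. The labels do not say what the number marks. Inpp5d passed in none of the 5 comparisons (adjusted p of at least 0.839). With the replicate number in the fit as a block its SE was 0.06 for each change between groups, against 0.14 without the block, and the lowest of its 5 adjusted p-values was 0.456.

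**Figure D4:**
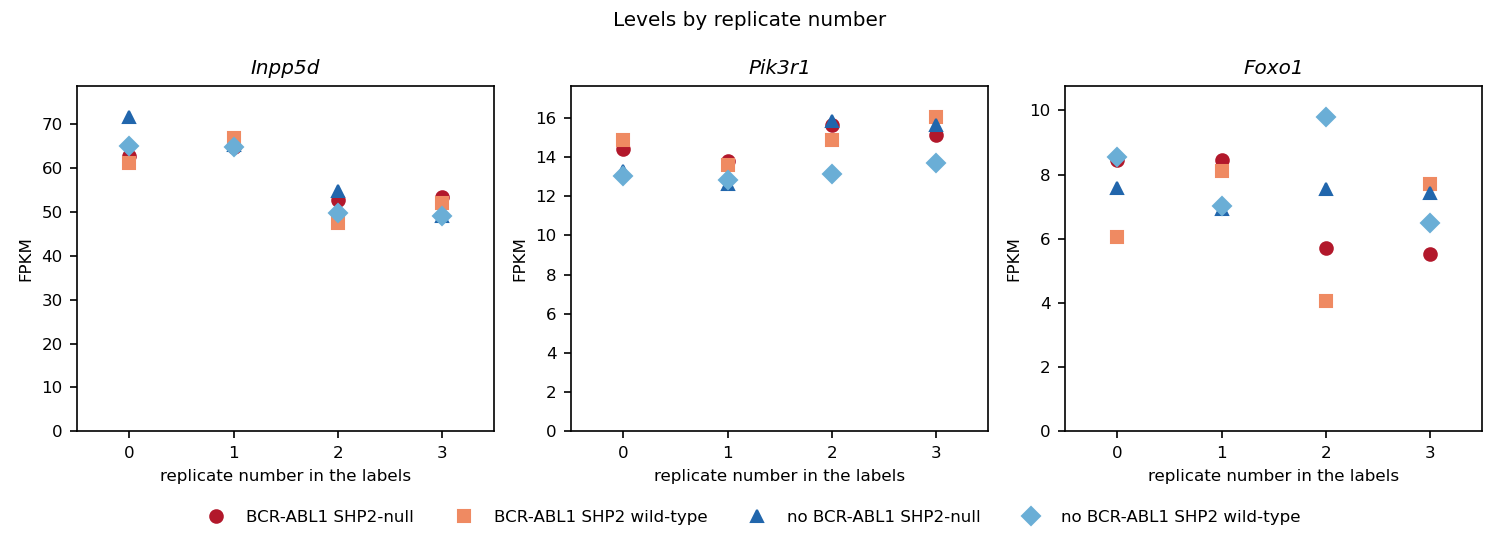
FPKM of Inpp5d, Pik3r1 and Foxo1 in the 16 libraries by replicate number, with a marker and colour for each group. Inpp5d lies at 61.1 FPKM or above in all libraries numbered 0 or 1 and at 54.8 FPKM or below in all libraries numbered 2 or 3.

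Foxo1, on chr3:52268336-52353221 (plus strand, GRCm38), encodes the FOXO factor required for early B cell development, and Foxo3, on chr10:42181841-42276755 (minus strand), encodes another. Foxo1 read 8.44, 8.46, 5.71 and 5.53 FPKM in SHP2-null and 6.06, 8.11, 4.06 and 7.71 FPKM in SHP2 wild-type libraries with BCR-ABL1. Without BCR-ABL1 it read 7.57, 6.93, 7.56 and 7.43 FPKM in SHP2-null and 8.55, 7.02, 9.78 and 6.50 FPKM in SHP2 wild-type libraries. The groups overlapped in each comparison, and the SHP2-null group without BCR-ABL1 had the narrowest range. Between groups, the log2 changes of Foxo1 lay between -0.28 ± 0.18 (SE), with BCR-ABL1 in SHP2 wild-type cells (limma adjusted p = 0.420), and 0.12 ± 0.18, with SHP2 loss in the presence of BCR-ABL1 (adjusted p = 1.00). The interaction of Foxo1 was 0.20 ± 0.25 (adjusted p = 0.940). The 95% interval of that SHP2 effect was -0.26 to 0.49, so a change of that size in either direction was within the error.

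Foxo3 ran from 4.96 to 6.41 FPKM in SHP2-null and from 4.47 to 6.44 FPKM in SHP2 wild-type cells carrying BCR-ABL1, and from 5.49 to 6.82 FPKM in SHP2-null and from 5.57 to 7.11 FPKM in SHP2 wild-type cells without it. With BCR-ABL1 its mean was 85.9% of that without BCR-ABL1 in SHP2-null cells and 85.7% in SHP2 wild-type cells. These differences did not pass (log2 changes of -0.19 ± 0.10 in each, SE, limma adjusted p = 0.444 in SHP2-null and 0.322 in SHP2 wild-type cells). The log2 changes of Foxo3 with SHP2 loss were 0.005 ± 0.10 with BCR-ABL1 and 0.001 ± 0.10 without it, with 95% intervals of -0.21 to 0.22 in cells with BCR-ABL1 and -0.21 to 0.22 in cells without it.

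The wider pathway was read from 8 lists with 88 genes in all, of which 79 were tested and 70 were not among the 9. The lists were chosen with earlier results of these data known, so their counts are a description and do not measure enrichment. Of these 70, BCR-ABL1 moved 6 past the threshold in SHP2-null cells (4 higher, 2 lower) and 10 in SHP2 wild-type cells (7 higher, 3 lower), where 1.26% and 4.67% of all genes tested passed. With the replicate number as a block the counts were 14 and 18 of the 70, where 538 and 1231 of all 10210 genes passed. Loss of SHP2 moved 0 of the 70 in cells with BCR-ABL1 and 2 in cells without it (both higher), where 0.313% and 1.54% of all genes passed. With the block these counts were 0 and 11, where 48 and 587 of all genes passed. The interaction was passed by 0. With array weights 21 of the 70 passed with BCR-ABL1 in SHP2-null cells and 8 with SHP2 loss lacking BCR-ABL1, where 1861 and 644 of all genes passed. Fits on the groups compared only gave 2 and 0 for these comparisons, and a mean of at least 5 FPKM, which left 49 of the 70 genes, gave 2 with BCR-ABL1 in SHP2-null and 3 in SHP2 wild-type cells. Without the library that held the myeloid markers, BCR-ABL1 moved 10 of the 70 in SHP2-null cells. The count in SHP2 wild-type cells was 6 without SHP2 wild-type replicate 0 or 2 with BCR-ABL1, or replicate 1 or 2 lacking it. That of SHP2 loss lacking BCR-ABL1 was 4 without SHP2 wild-type replicate 1, and 1 without SHP2 wild-type replicate 2 or 3 or SHP2-null replicate 0, of these groups. Pik3cb, Pik3r3, Gab1, Inpp4a, Deptor, Foxo6, Bcl6 and Arrdc4 were among the genes too low to be tested. The kinase list around Akt1, the mTORC1 branch and the FOXO factors had 0 of 10, 0 of 10 and 0 of 3 genes past the threshold in each of the 5 comparisons. With BCR-ABL1 the PI3K subunits had 2 of 11 genes lower in SHP2-null and 1 of 11 in SHP2 wild-type cells. The adaptors, Irs2 included, had 1 of 6 higher and 1 lower in SHP2-null cells. The inhibitors and phosphatases had 0 of 7 past the threshold in SHP2-null cells and 1 higher in SHP2 wild-type cells. The thioredoxin system and alpha-arrestins had 1 of 10 higher in SHP2-null cells, which was Txnip, and 0 in SHP2 wild-type cells.

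Among FOXO target genes, 4 of 25 tested rose and 1 fell with BCR-ABL1 in SHP2-null cells, and 5 rose and 2 fell in SHP2 wild-type cells. Over all 10210 genes tested, 59 rose and 70 fell in SHP2-null cells (1.26% in all), and 301 rose and 176 fell in SHP2 wild-type cells (4.67% in all). Il7r, which encodes the receptor chain for the pre-B growth factor interleukin 7, had the largest change of those that passed. It averaged 25.0 ± 1.76 FPKM with BCR-ABL1 against 11.9 ± 2.58 FPKM without it in SHP2-null cells, and 25.3 ± 3.09 FPKM with BCR-ABL1 against 6.29 ± 0.754 FPKM without it in SHP2 wild-type cells (SD, n = 4 each). Ccng2, which encodes an antiproliferative cyclin, averaged 37.8 ± 3.97 FPKM with BCR-ABL1 against 20.1 ± 4.03 FPKM without it in SHP2-null cells, which is 0.89 ± 0.13 on the log2 scale (SE, limma adjusted p = 0.00464). Trib2, which encodes a pseudokinase, rose by 0.68 ± 0.11 in SHP2-null (adjusted p = 0.00719) and by 0.55 ± 0.11 in SHP2 wild-type cells (adjusted p = 0.0113). Trib2 reached 1 FPKM only in libraries with BCR-ABL1, so it entered the test only through them. The stress gene Gadd45b rose by 0.82 ± 0.13 in SHP2 wild-type cells (adjusted p = 0.00143). Irs2, itself on that list, fell in both genotypes. The median log2 change of the 25 genes was 0.13 in SHP2-null and 0.19 in SHP2 wild-type cells, against -0.01 and 0.04 over all genes. This list too was chosen with earlier results of these data known, so its counts and medians are a description.

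Among PI3K subunits, Pik3r6, which encodes a regulatory partner of the gamma catalytic subunit, was lower with BCR-ABL1 in both genotypes. It averaged 2.29 ± 0.197 FPKM with BCR-ABL1 against 3.31 ± 0.188 FPKM without it in SHP2-null cells, and 2.45 ± 0.168 FPKM with BCR-ABL1 against 4.16 ± 0.249 FPKM without it in SHP2 wild-type cells (SD, n = 4 each, limma adjusted p = 0.00651 in SHP2-null and 7.59e-05 in SHP2 wild-type cells). Gab3, of the adaptor family that binds SHP2 and p85, rose by 0.46 ± 0.08 (SE, adjusted p = 0.00353) and the inositol phosphatase gene Inpp5k by 0.31 ± 0.06 (adjusted p = 0.00807) in SHP2 wild-type cells. Over fits without 1 library these calls of Il7r, Ccng2, Trib2, Gadd45b, Pik3r6, Gab3 and Inpp5k held in 16 of 16. On the groups compared only, those of Pik3r6 (0.0667) and Trib2 (0.0577) in SHP2-null cells and of Inpp5k (0.0543) in SHP2 wild-type cells were lost.

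The other calls described here were lost in some of the fits without 1 library. For Gab3, Ccng2 and Cdkn1b this held also without libraries outside the comparison, which left the log2 change as it was. Pik3r5, which encodes another gamma partner, read 6.77 FPKM in the library with the myeloid markers, against 3.34 to 4.44 FPKM in the other 3 SHP2-null libraries without BCR-ABL1. In SHP2-null cells it fell by 0.63 ± 0.14 with BCR-ABL1 (SE, limma adjusted p = 0.0324). The call held without the library with the myeloid markers. It was lost without SHP2-null replicate 0, 2 or 3 with BCR-ABL1 or SHP2-null replicate 3 without BCR-ABL1 (adjusted p up to 0.195 over all alternatives). Gab3 rose by 0.35 ± 0.08 there (adjusted p = 0.0439), a call that held without SHP2 wild-type replicate 1 or 3 with BCR-ABL1 or SHP2-null replicate 2 lacking it, and was lost without any of the other 13 libraries (up to 0.162). With BCR-ABL1 in SHP2 wild-type cells, the calls of Ccng2 (0.50 ± 0.13, adjusted p = 0.0448) and the cell cycle inhibitor gene Cdkn1b (0.26 ± 0.07, adjusted p = 0.0412) each held in 5 of 16 fits. Both were lost without any SHP2 wild-type replicate with BCR-ABL1, without SHP2-null replicate 3 with BCR-ABL1 and without SHP2 wild-type replicate 1, 2 or 3 lacking it. The call of Ccng2 was lost also without SHP2-null replicate 0 or 1 with BCR-ABL1 or replicate 0 lacking it (up to 0.153), and that of Cdkn1b without SHP2-null replicate 2 with BCR-ABL1, SHP2-null replicate 1 lacking it or SHP2 wild-type replicate 0 lacking it (up to 0.136). The scaling also ended both calls, with 0.0638 and 0.0792 for Ccng2 and Cdkn1b under median-ratio scaling and 0.0802 and 0.0775 after quantile normalization. Trib1, which encodes a pseudokinase, fell by 0.46 ± 0.11 with BCR-ABL1 in SHP2 wild-type cells (adjusted p = 0.0262). It reached 1 FPKM only in libraries without BCR-ABL1, so it entered the test only through them. The Trib1 call was lost without SHP2 wild-type replicate 0, 1 or 2 with or lacking BCR-ABL1 (up to 0.0933).

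With SHP2 loss lacking BCR-ABL1, Il7r rose by 0.81 ± 0.12 (SE, limma adjusted p = 0.00249, or 0.0505 on the groups compared only) and Inpp5k by 0.29 ± 0.06 (adjusted p = 0.0222). The Inpp5k call was lost without SHP2-null replicate 0 or SHP2 wild-type replicate 2 or 3 of these groups (up to 0.123 over all alternatives).

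**Figure D5:**
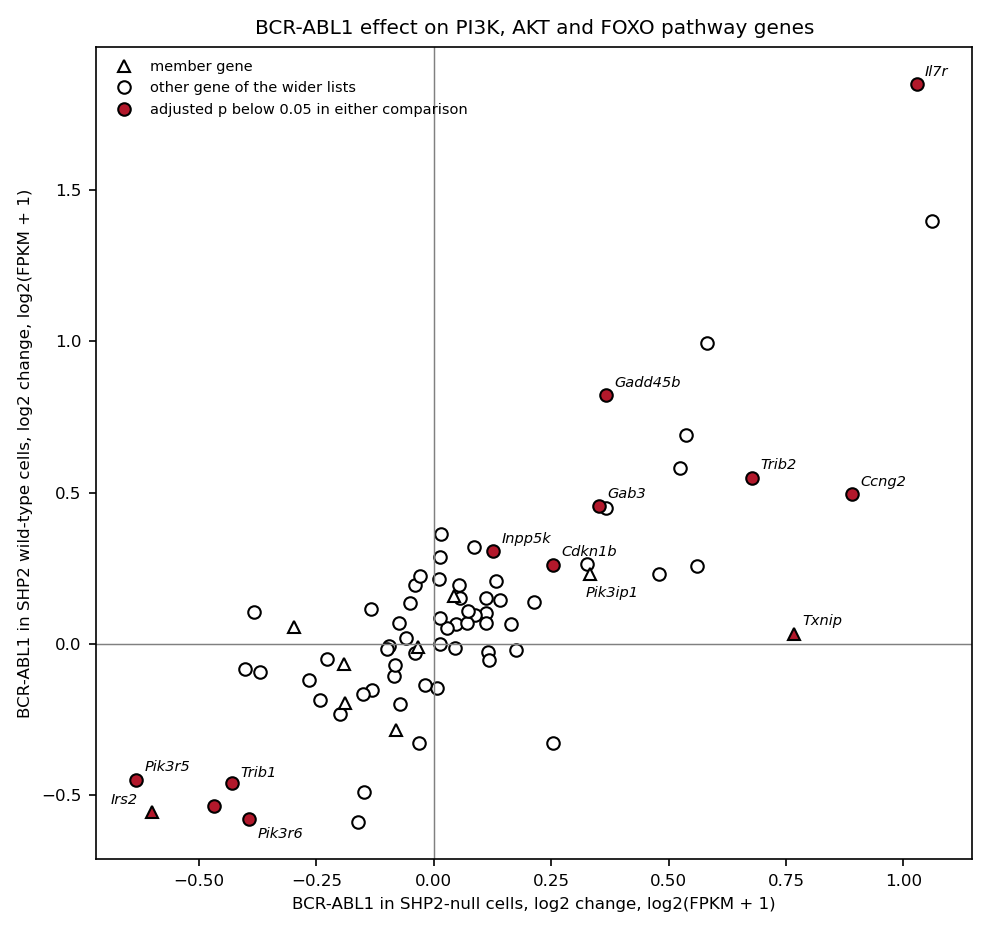
Log2 change with BCR-ABL1 in SHP2-null cells (x axis) and in SHP2 wild-type cells (y axis) for the 79 tested genes of the pathway lists, on the log2(FPKM + 1) scale, with triangles for the 9 genes and filled symbols for an adjusted p below 0.05 in either comparison. Irs2 lies at negative values on both axes, and Txnip at 0.77 on the x axis and 0.03 on the y axis. The axes share no library.

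Genes whose pattern was most like that of a gene here were taken by Pearson's r of log2(FPKM + 1) over the 16 libraries among 6795 genes, as a description. All values share the same libraries and groups. The spread of Inpp5d followed the replicate number, as given above, and the part of that split in its r values was not tested. The closest to Irs2 were Steap3 (0.95), Lef1 (0.94) and Sipa1 (0.91), and the closest to Txnip were Kdm3a (0.95), Slc37a4 (0.94) and Ankrd37 (0.93). For Pik3ip1 they were Ezh1 (0.91), Gng4 (0.86) and Irf9 (0.85). Inpp5d was matched by Dido1 (0.97), Pan2 (0.97) and Fkbp15 (0.97), Akt1 by Lypla2 (0.96), Lrwd1 (0.95) and Cactin (0.95), Pik3cd by Por (0.95), Zer1 (0.93) and Wdr6 (0.93), and Pik3r1 by B2m (0.94), Xrcc6 (0.94) and Klf10 (0.93). Foxo3 was matched by Ube2o (0.92), Mink1 (0.92) and Scap (0.89), and Foxo1 less closely by Smad4 (0.88), Gsk3b (0.85) and Ube4a (0.85).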

How the data were processed

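Paired-end, stranded polyA RNA-seq libraries of 16 samples were made, per the labels' protocols. The authors deposited FPKM values with gene symbols and no counts. Alignment and FPKM estimation tools (Bowtie, Cufflinks) and the mm10 build are credited to the submitters' processing notes. The sources used here do not state tool versions, annotation, strand handling or between-library scaling. Entries of the 254 symbols listed more than once were summed. Estimated relative depth spanned a ratio of 1.60, taken from the commonest ratio of low values between libraries, which held for at most 23.3% of genes, too few to recover whole reads.

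A gene was tested where 4 or more libraries reached 1 FPKM, as log2(FPKM + 1) in limma 3.58.1 (R 4.3.3), with 4 group means, a trended prior, two-sided tests and Benjamini-Hochberg adjustment over 10210 genes, and an adjusted p below 0.05 counted as passing. This main fit held no replicate term, so its p-values do not use any pairing of libraries, and the replicate block was run as an alternative. The fit was tested on simulated data with independent noise in each library. Those data held no deviations shared by replicate number, so that test does not cover libraries that share them. The share tests used Python 3.11.15 and scipy 1.17.1. The alternatives were pseudocount 0.1, no filter, a mean of at least 5 FPKM, median-ratio scaling, quantile normalization, the groups compared only, array weights, a replicate block and leaving out each library.

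Same-number deviations correlated at 0.218 to 0.783 (SHP2 loss with BCR-ABL1), 0.189 to 0.510 (SHP2 loss without it) and 0.242 to 0.680 (BCR-ABL1 in SHP2-null cells). From these values alone the replicate numbers could be read as pairs in those 3 comparisons, but the main fit did not pair libraries. In SHP2 wild-type cells BCR-ABL1 gave 0.0549 to 0.643. Libraries of different numbers correlated at up to 0.822, 0.538, 0.385 and 0.725, in the order given, each time a replicate 2 with a replicate 3. The data thus do not establish pairing by number, on which the same-number counts and the block fits rest. Sets of 4 libraries, 1 of each group, were sequenced together, per the labels, which do not say that the number marks the set.

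The members, the pathway lists and the marker lists were chosen with earlier results of these data known. All 9 members are named, of the lists the genes that passed (up to 2 others per list, by the smallest p, could be named and none is), and the 3 genes most like each member. Some items are not reported here. Gene positions are from GENCODE and promoter sequences from RefSeq.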

Additional observations from a re-analysis of the deposited data

Results flagged for a closer look

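Single libraries far from the other 3 of their group were looked for in 36 groups (9 genes in 4 groups), and 5 stood out by Dixon's 95% critical value for 4 samples. Chance flags about 1 in 20 groups. Each was the highest of its group. Foxo3 read 6.41 FPKM in SHP2-null replicate 1 with BCR-ABL1. Irs2 read 1.76 FPKM in SHP2-null replicate 3 without BCR-ABL1 and 2.10 FPKM in SHP2 wild-type replicate 2 without it. Akt1 read 60.0 FPKM in SHP2-null replicate 3 without BCR-ABL1. Pik3ip1 read 9.41 FPKM in SHP2-null replicate 2 without BCR-ABL1, the library with 413 FPKM of summed myeloid markers.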

How the results depend on the processing

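Of 1066 values of the 9 genes under an alternative, 985 kept their direction and side of the threshold, 18 lost a call, 5 gained one and 58 changed sign, none of the last from a call. Without 1 library the log2 changes that changed sign ran, for SHP2 loss in cells carrying BCR-ABL1, from -0.060 to 0.22 (Foxo1), -0.072 to 0.086 (Foxo3), -0.050 to 0.095 (Pik3cd), -0.046 to 0.028 (Pik3r1) and -0.035 to 0.13 (Inpp5d). For SHP2 loss in cells lacking it they ran from -0.17 to 0.0093 (Foxo1), -0.043 to 0.059 (Foxo3), -0.11 to 0.088 (Irs2) and -0.016 to 0.16 (Inpp5d), and for the interaction from -0.073 to 0.085 (Foxo3), -0.17 to 0.031 (Irs2) and -0.12 to 0.062 (Inpp5d). With BCR-ABL1 they ran from -0.17 to 0.011 (Foxo1), -0.013 to 0.089 (Pik3r1) and -0.12 to 0.054 (Inpp5d) in SHP2-null cells, and from -0.044 to 0.19 (Txnip), -0.089 to 0.073 (Inpp5d) and -0.019 to 0.11 (Akt1) in SHP2 wild-type cells. Other sign changes were Foxo3 in SHP2 loss lacking BCR-ABL1 (-0.019 with median-ratio scaling, -0.033 after quantile normalization, -0.0039 with array weights), the interaction of Inpp5d (0.0039 and 0.036 with those scalings), and, for SHP2 loss in cells carrying BCR-ABL1, Pik3r1 (0.011 after quantile normalization) and Pik3cd (-0.0059 with array weights). For the counts of all genes called, in the order SHP2 loss in cells carrying BCR-ABL1, SHP2 loss in cells lacking it, BCR-ABL1 in SHP2-null cells and BCR-ABL1 in SHP2 wild-type cells, a mean of at least 5 FPKM gave 11, 70, 33 and 186, which tests fewer genes. The groups compared only, with fewer libraries, gave 34 for SHP2 loss without BCR-ABL1 and 30 for BCR-ABL1 in SHP2-null cells. The replicate block gave 587, 538 and 1231 for the last 3 comparisons, array weights 644, 1861 and 837, and the block changed no call among the 9 genes. The interaction gave 3 genes with no filter and 2 with array weights. Without 1 library the counts ran from 20 to 35, 80 to 164, 49 to 176 and 235 to 636, and from 0 to 1 for the interaction. The libraries that moved a count by over 1.5 times were, for the first, SHP2 wild-type replicates 2 (21) and 3 (20) with BCR-ABL1, and for the second, SHP2-null replicate 2 (103) and SHP2 wild-type replicates 2 (80) and 3 (102) lacking it. For the third they were SHP2-null replicates 0 (55) and 2 (49) with BCR-ABL1 and 0 (70) and 3 (61) lacking it, and for the fourth, SHP2 wild-type replicates 0 (250), 2 (305) and 3 (306) with BCR-ABL1 and 2 (235) and 3 (296) lacking it. The higher calls were 104 of 157 for SHP2 loss without BCR-ABL1 against 86 of 160 after quantile normalization, and 301 of 477 for BCR-ABL1 in SHP2 wild-type cells against 248 of 466 with median-ratio scaling. The cause of these differences was not tested. Irs2 was not tested at a mean of at least 5 FPKM. Depth, which limits low genes such as Irs2 most, is unknown.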
